A study of Mus musculus with 4 samples.

Results

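Nuclear receptors are transcription factors that bind DNA and, for most of the family, a small lipophilic ligand such as a hormone, bile acid, oxysterol or fatty acid. Many act as a pair with a retinoid X receptor, and in liver they set bile acid synthesis, lipid and glucose metabolism and the clearance of foreign compounds. The 34 receptors described here were chosen by name. The rule used no measured value, but it was set with earlier results of these data known. A receptor was included when a probe set (a group of probes for 1 transcript on the array) carried its symbol and no other symbol in the platform annotation. This found 33 receptors with 90 probe sets, out of 18193 genes with such a probe set. Nr1h2, the second liver X receptor, had none.

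The study hybridised RNA from livers of C57BL/6J mice to 4 Affymetrix arrays. There were 2 arrays from liver taken 48 h after partial hepatectomy, in which some lobes are cut away and the remaining liver regrows, and 2 from liver taken 48 h after a sham operation. Both groups were labelled as mature liver and carried no stated mutation or drug. The sources used here do not give the age and sex of the mice, how much liver was removed, or whether RNA of several animals was pooled on an array. P-values therefore measure only the spread between these arrays.

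Values are the authors' linear signals, for which every array had a mean of 500.0 after trimming 2% at each end. Median signals were 57.5 and 46.4 on the hepatectomy arrays and 48.7 and 47.6 on the sham arrays. All 11 tested proliferation markers rose after hepatectomy, and none of 11 tested hepatocyte markers passed limma's test (0 at an unadjusted p under 0.05). Of other cell type markers, 4 of 11 for stellate cells and the 2 tested of 7 for neutrophils rose, 1 of 7 tested for lymphocytes fell (all 7 had a negative log2 fold change, median -1.25), and 1 rose and 1 fell of 11 for Kupffer cells and macrophages. Their part in the results was not tested. Hepatectomy replicate 1 stood apart from the other arrays. The summed signal of 13 adrenal markers was 23839 on it and 2750.2 on hepatectomy replicate 2, against 1837.2 and 1655.6 on the sham arrays. Mrap alone had 2758 and 2530 on the hepatectomy arrays, against 1615 and 1451 on the sham arrays. It made up most of each sum except that of hepatectomy replicate 1. Of these 13 markers, 0 lay at or under the bacterial control level (below) on hepatectomy replicate 1 and 9 on replicate 2, against 10 on each sham array. The summed signal of 8 adipocyte markers was 7144 and 3115.8 on the hepatectomy arrays, against 1520.0 and 1576.8 on the sham arrays. Fabp4 made up most of it on every array, with 4391 and 2592 after hepatectomy, against 1071.5 and 1264 after sham operation. Of these 8 markers, 0 and 2 lay at or under the bacterial control level on hepatectomy replicates 1 and 2, against 4 on each sham array. Adipoq had 574 and 56.3 after hepatectomy, against 4.02 and 6.29 after sham operation. Retn, Plin4 and Lipe did not exceed the higher sham array on hepatectomy replicate 2. Each marker stands here for its probe set with the highest mean signal. Receptor results that rest on hepatectomy replicate 1 are given with and without it, and so are those of several other lists. A fit without it still holds the adipocyte signal of hepatectomy replicate 2. The cell type marker counts above use all 4 arrays. In whole tissue, a change in the number of cells of a type and a change of RNA per cell cannot be told apart.

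The background was taken as 20.4, the highest signal of 27 control probe sets for Bacillus subtilis transcripts. A receptor was called well above background when its brightest probe set exceeded 3 times that signal (61.2) on every array, near background when it exceeded 20.4 on every array, and dim otherwise. By this rule 24 receptors were well above background. Ppard, Nr4a1, Nr4a2 and Nr2f1 were near it, and Rara, Thrb, Vdr, Nr4a3 and Hnf4g were dim. Of the 90 probe sets 51 were well above background, 14 near it and 25 dim.

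The comparison asked which of these receptors had a different transcript level in regenerating liver. None of the 29 receptors that passed the filter on low values was called higher or lower. That filter kept probe sets whose mean log2 value was at or above the 40th percentile, and Rara, Thrb, Vdr and Hnf4g did not pass it. By limma with Benjamini-Hochberg adjustment over all 27022 probe sets tested, 4.67% of 12560 genes were called at an adjusted p of 0.05, 3.57% higher and 1.09% lower. At an unadjusted p under 0.05 there were 3 receptors of 29 (Nr0b2, Nr1h4 and Nr6a1), against 19.9% of all genes. Both hepatectomy arrays lay above both sham arrays for 6 receptors, which is 20.7% of 29, against 28.1% of all genes. Both lay below for 9 receptors, 31.0% of 29, against 23.2% of all genes. The median log2 fold change was -0.02 over the receptors and 0.02 over all genes.

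For most receptors well above background limma gave a rather narrow interval of the difference. Its width rests more on variance shared over all tested probe sets (6.02 prior degrees of freedom) than on these 4 arrays (2 residual ones). The 95% interval of the log2 fold change lay between -1 and 1, that is within a 2-fold change either way, for 20 of the 24. The 4 exceptions were Nr0b2, Nr6a1, Thra and Rarb. The standard error of these 24 ranged from 0.106 to 0.378 with a median of 0.201 on the log2 scale. An interval within 2-fold leaves smaller differences open to either sign and does not show that the groups were alike.

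**Figure D1:**
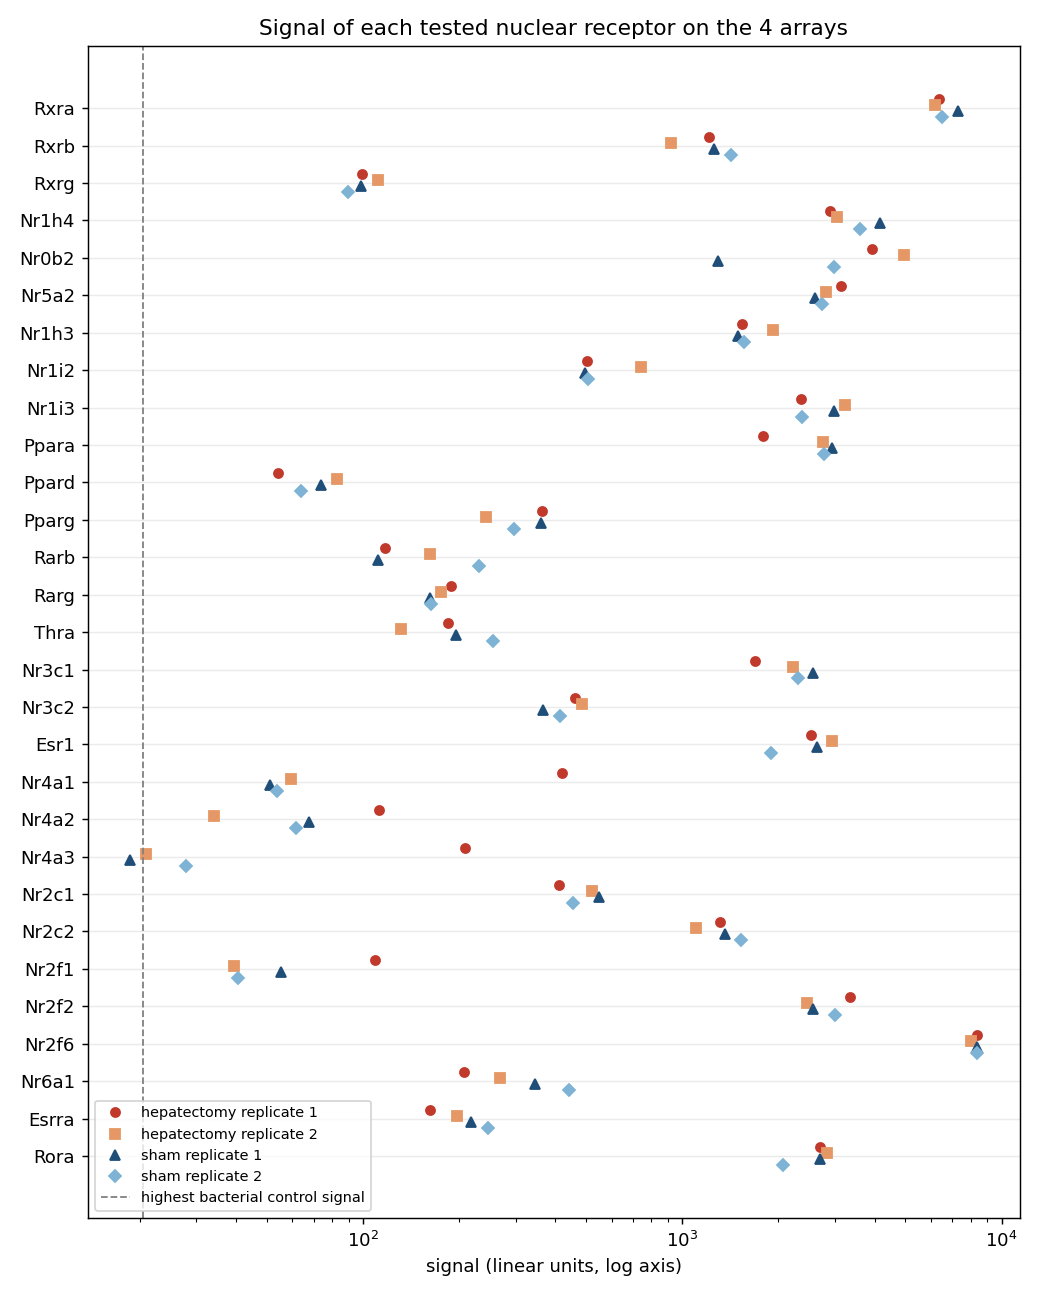
Signal of the tested probe set with the highest mean for each of 29 nuclear receptors (rows, ordered by role) on the 4 arrays (linear signal on a log axis). Circles and squares are hepatectomy replicates 1 and 2, triangles and diamonds sham replicates 1 and 2, and the dashed line marks the bacterial control level of 20.4. Nr0b2 is higher on both hepatectomy arrays, and Nr4a1, Nr4a3 and Nr2f1 stand out on hepatectomy replicate 1.

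**Figure D2:**
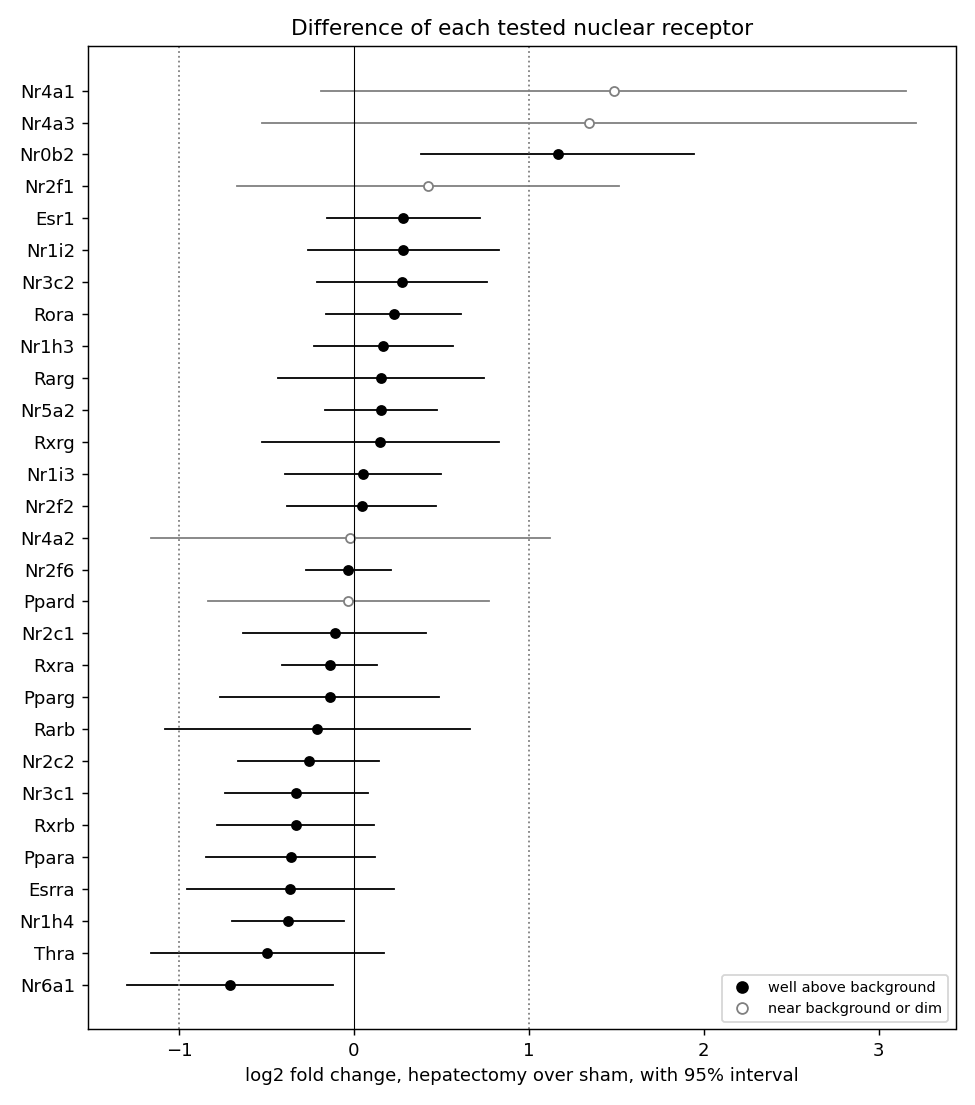
Log2 fold change (hepatectomy over sham) of the same 29 receptors with its 95% interval, ordered from highest to lowest. Filled points were well above background and open points near it or dim, and dotted lines mark a 2-fold change. The intervals of Nr0b2, Nr1h4 and Nr6a1 leave out 0, and no receptor passed the adjusted threshold.

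The largest difference among receptors well above background was that of Nr0b2, which encodes SHP. SHP is a nuclear receptor that lacks a DNA-binding domain, is induced by the bile acid receptor FXR and represses Cyp7a1, the gene for the enzyme that limits bile acid synthesis. Nr0b2 had signals of 3916 and 4962 on the hepatectomy arrays and of 1291 and 2979 on the sham arrays. The groups did not overlap, but the sham arrays differed 2.31-fold from each other. The mean was 4439 ± 739.7 after hepatectomy and 2135 ± 1194 after sham operation (SD, n = 2 each), a ratio of 2.08. Its log2 fold change was 1.16 ± 0.34 (SE; 95% interval 0.38 to 1.94) and did not pass by limma (adjusted p = 0.124). Without hepatectomy replicate 1 it was 1.335, and without hepatectomy replicate 2 it was 0.99. The value depended more on the sham arrays. With sham replicate 1 left out it was 0.56 (adjusted p = 0.369). With sham replicate 2 left out it was 1.76 and limma called it (adjusted p = 0.00815), with a sham group of 1 array assumed to vary like the hepatectomy pair.

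The 250 bases before the Nr0b2 start are shown because the liver receptor homolog LRH-1, encoded by Nr5a2, is known to act on this promoter through sites that begin with TCAAGG. The sequence is from RefSeq (GRCm38.p6, chr4:133553126-133553375, plus strand), 5′ to 3′, with TCAAGG in capitals.
Nr0b2: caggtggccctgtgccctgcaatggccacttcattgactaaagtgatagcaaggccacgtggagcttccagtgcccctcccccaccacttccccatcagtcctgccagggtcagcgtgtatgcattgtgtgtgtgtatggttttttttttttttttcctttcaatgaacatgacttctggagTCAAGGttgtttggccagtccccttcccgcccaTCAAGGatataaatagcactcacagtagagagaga
TCAAGG, searched on both strands, occurred 2 times, at positions -68 and -35 counted from the start. At least 2 matches were found in 0.922% of 32851 promoter entries of the same length, and at least 1 in 12.5%. A match describes the letters and is no measurement of binding.

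The other receptors of bile acid and oxysterol control differed less. Nr1h4, which encodes FXR, had signals of 2898 and 3055 on the hepatectomy arrays, against 4152 and 3607 on the sham arrays. Both hepatectomy values lay below both sham values, with a log2 fold change of -0.38 ± 0.14 (SE; 95% interval -0.70 to -0.06; limma adjusted p = 0.22). Nr5a2, the gene of LRH-1, had 3138 and 2827 after hepatectomy, against 2604 and 2747 after sham operation, a log2 fold change of 0.15 ± 0.14. Its 4 tested probe sets lay between -0.05 and 0.21. Nr1h3, the oxysterol receptor LXR alpha, had 1536 and 1918 on the hepatectomy arrays and 1491 and 1563 on the sham arrays. The groups overlapped, and the log2 fold change was 0.17 ± 0.17.

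Textbook targets of these receptors are set beside them for comparison. Over all genes 3.57% were called higher and 1.09% lower. In the FXR list 2 of 15 tested genes rose and 2 fell, with a median log2 fold change of 0.04. That list holds both genes that FXR induces, such as Nr0b2, and genes lowered through SHP, such as Cyp7a1. Its median thus mixes both directions. Cyp7a1 had signals of 95.2 and 196 on the hepatectomy arrays, where Nr0b2 was higher, against 3115 and 1761 on the sham arrays. After hepatectomy the lower Cyp7a1 value was on the array with the lower Nr0b2 value. After sham operation it was on the array with the higher Nr0b2 value. With 2 arrays in a group, this order cannot show a relation. The part of SHP in the Cyp7a1 values was not tested. Apoc2, the apolipoprotein cofactor of lipoprotein lipase, rose by a log2 fold change of 0.55 ± 0.10 (limma adjusted p = 0.0253). Without hepatectomy replicate 1 Apoc2 had 0.50, and Slc51b and Cyp8b1 of the same list had 1.87 and -4.97. In the LXR list 3 of 14 fell and none rose, with a median of -0.34. Without hepatectomy replicate 1 the FXR list had 1 gene higher and 2 lower of 15, and the LXR list 2 lower of 14.

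Both xenobiotic receptors, which induce enzymes of drug clearance, were well above background. Nr1i2, which encodes PXR, had signals of 503 and 742 on the hepatectomy arrays, against 496 and 505 on the sham arrays. Nr1i3, which encodes CAR, had 2353 and 3224 after hepatectomy, against 2982 and 2369.8 after sham operation. The groups overlapped for both, with log2 fold changes of 0.28 ± 0.24 for Nr1i2 and 0.05 ± 0.19 for Nr1i3. Among 17 tested CAR and PXR targets, 1 rose and 1 fell, with a median of -0.03. The growth arrest gene Gadd45b, a CAR target, rose by a log2 fold change of 2.57 ± 0.24 (limma adjusted p = 0.0015), and the carboxylesterase gene Ces2a fell by 1.03 (adjusted p = 0.0321). Without hepatectomy replicate 1 there were 1 higher and 2 lower.

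The retinoid X receptors are the shared partners of the receptors above. Rxra had signals of 6364 and 6179 on the hepatectomy arrays, against 7307 and 6528 on the sham arrays, a log2 fold change of -0.14 ± 0.12 with an interval of -0.41 to 0.13. Rxrb had 1212 and 921 after hepatectomy, against 1255 and 1417 after sham operation (-0.33 ± 0.19). Rxrg had 99.3 and 111 after hepatectomy, against 98.5 and 89.5 after sham operation (0.15 ± 0.29). The 3 adjusted p-values of limma lay between 0.453 and 0.857.

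Ppara, the fatty acid sensor that induces fatty acid oxidation genes in liver, was lowest on hepatectomy replicate 1 in all 3 of its probe sets. In the probe set with the highest mean its signals were 1785 and 2758 on the hepatectomy arrays, against 2936 and 2778 on the sham arrays. Hepatectomy replicate 2 thus lay close to the sham arrays. The log2 fold change was -0.36 ± 0.21 (limma adjusted p = 0.446). Leaving out hepatectomy replicate 1 gave -0.05 (adjusted p = 0.938). Without hepatectomy replicate 2 it was -0.68 and called (adjusted p = 0.0436), but the hepatectomy group is then 1 array, assumed to vary like the sham pair. The other Ppara probe sets had -0.58 and -0.44. The part of the adrenal and adipocyte transcripts of hepatectomy replicate 1 in this value was not tested.

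Of 25 tested targets of PPAR alpha 6 rose and none fell, with a median log2 fold change of 0.15, and without hepatectomy replicate 1 there were 5 higher and 1 lower. Acot3, a peroxisomal acyl-CoA thioesterase, had signals of 3154 and 2969 on the hepatectomy arrays, against 674 and 420.2 on the sham arrays. Pdk4, the kinase that inhibits pyruvate dehydrogenase, had 8436 and 4366 after hepatectomy, against 1385 and 1305 after sham operation, and the mitochondrial thioesterase gene Acot2 had 6089 and 2948, against 1096 and 999.5 after sham operation. Fgf21, a fasting hormone, had 374 and 115 after hepatectomy, against 16.7 and 6.77 after sham operation, both under the bacterial control level. Pdk4, Acot2 and Fgf21 were thus higher on hepatectomy replicate 1, where Ppara was lowest, while Acot3 differed little between the hepatectomy arrays. The part of the adrenal and adipocyte transcripts of hepatectomy replicate 1 in these target values was not tested. Pparg, the receptor of fat cell differentiation, had 363 and 242 after hepatectomy, against 361 and 298 after sham operation. The groups overlapped, with a log2 fold change of -0.14 ± 0.27, and of -0.42 without hepatectomy replicate 1. The part of the adipocyte transcripts of the hepatectomy arrays in the Pparg values was not tested. Ppard was near background, with 54.1 and 82.8 after hepatectomy, against 73.9 and 64.1 after sham operation.

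Nr3c1 encodes the glucocorticoid receptor, which induces gluconeogenic genes in liver. It had 6 tested probe sets, all with a negative log2 fold change, from -0.88 to -0.27. In 5 of the 6 both hepatectomy arrays lay below both sham arrays, and 3 of the 6 had an unadjusted p under 0.05. The probe set with the highest average on the log2 scale had signals of 1684 and 2217 on the hepatectomy arrays, against 2565 and 2304 on the sham arrays. Its log2 fold change was -0.33 ± 0.18 (limma adjusted p = 0.411), and -0.13 without hepatectomy replicate 1. A second one had 1493 and 1496 after hepatectomy, against 2329 and 2019.6 after sham operation, a log2 fold change of -0.53 ± 0.16 (adjusted p = 0.125). The lowest value came from a probe set with 114 and 103 after hepatectomy, against 201 and 212 after sham operation (-0.88 ± 0.27, adjusted p = 0.138). Averaged over the 6 probe sets the log2 fold change was -0.46 and did not pass (adjusted p = 0.209). These probe sets read the same 4 RNA samples and are not replicates of each other.

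The other steroid receptors had small differences. Nr3c2, the mineralocorticoid receptor, had 461 and 484 on the hepatectomy arrays, against 365 and 415 on the sham arrays (log2 fold change 0.27 ± 0.21). Esr1, the estrogen receptor alpha, had 2522 and 2936 after hepatectomy, against 2635 and 1896 after sham operation (0.28 ± 0.19). Among 18 tested glucocorticoid receptor targets 2 rose and none fell, with a median of 0.00. These were Lcn2, an acute phase gene, and the metallothionein gene Mt1, whose log2 fold change was 1.24 ± 0.17 (limma adjusted p = 0.00771).

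**Figure D3:**
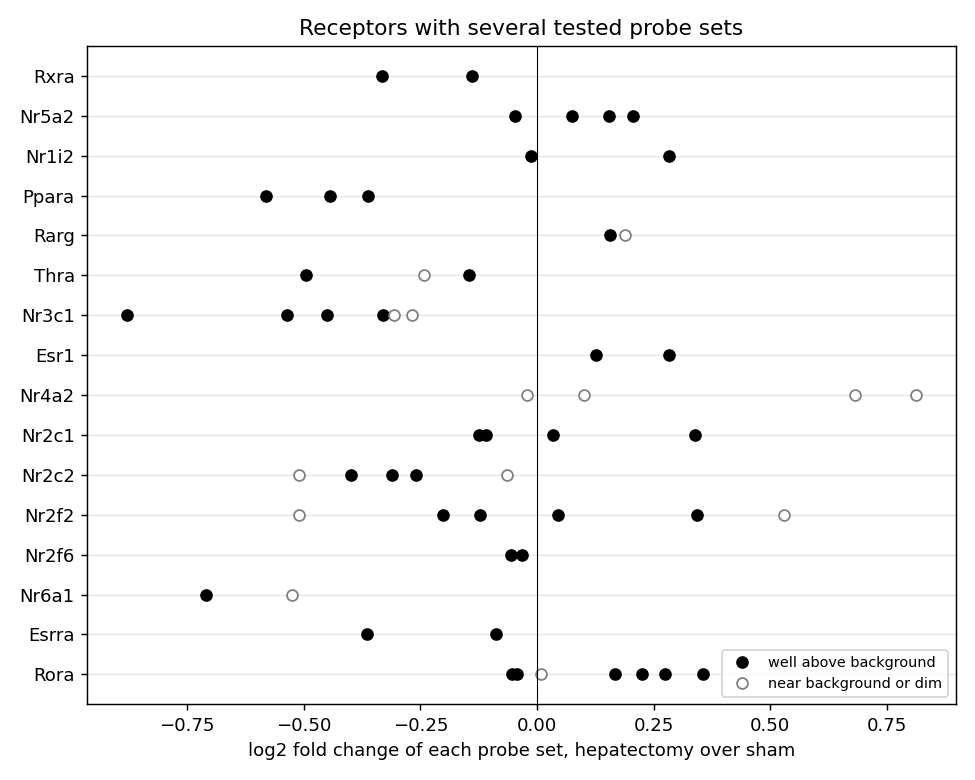
Log2 fold change (hepatectomy over sham) of every tested probe set for the 16 receptors with more than 1. Filled points were well above background and open points near it or dim. All points of Nr3c1, Ppara, Thra and Nr2c2 lie below 0, while those of Nr2f2 and Nr2c1 lie on both sides.

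Receptors of thyroid hormone, retinoic acid and vitamin D included 3 of the 5 dim receptors, Thrb, Rara and Vdr. Thra, the thyroid hormone receptor alpha, had 185 and 132 on the hepatectomy arrays, against 196 and 255 on the sham arrays. Its log2 fold change was -0.50 ± 0.29 (limma adjusted p = 0.454), and its other tested probe sets had -0.24 and -0.15. Thrb, the main thyroid hormone receptor of liver, was dim, with 20.9 and 3.43 after hepatectomy, against 26.6 and 31.5 after sham operation, and was not tested. Rarb had 117 and 162 after hepatectomy, against 111 and 231 after sham operation (-0.21 ± 0.38), and Rarg had 189 and 175, against 162 and 163 after sham operation (0.16 ± 0.26). Rara had 24.7 and 9.58 after hepatectomy, against 42.9 and 9.77 after sham operation. The 2 probe sets of Vdr lay between 2.07 and 25.9 over all arrays, so no level could be compared.

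Of 10 tested thyroid hormone targets 3 fell and none rose, with a median log2 fold change of -0.66, and the same counts were found without hepatectomy replicate 1. Me1, the malic enzyme that supplies NADPH, had signals of 2330.3 and 2395 on the hepatectomy arrays, against 4261 and 4028 on the sham arrays (limma adjusted p = 0.017). Thrsp, a lipogenic gene, had 1174 and 4363 after hepatectomy, against 13823 and 11788 after sham operation (adjusted p = 0.0342). Its log2 fold change was -2.49 over all arrays and -1.55 without hepatectomy replicate 1, where it was called too. Cyp7a1 belongs to this list too, as well as to the FXR and LXR lists. Of 5 tested targets of the retinoic acid and vitamin D receptors, the transglutaminase gene Tgm2 rose (0.79 ± 0.15, adjusted p = 0.0291), and none rose without hepatectomy replicate 1.

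The NR4A receptors are induced within a short time by hormones and stress and act without a known natural ligand. Nr4a1 had signals of 420.4 and 59.4 on the hepatectomy arrays, against 51.2 and 53.7 on the sham arrays. Nr4a3 had 209 and 20.8 after hepatectomy, against 18.6 and 27.9 after sham operation, in its 1 tested probe set. Hepatectomy replicate 1 was thus 7.83 times the higher sham array for Nr4a1, while hepatectomy replicate 2 lay near the sham arrays. Nr4a3 lay around the bacterial control level of 20.4 on the other 3 arrays, so no fold is given for it. Nr4a2 was highest on hepatectomy replicate 1 in 5 of its 6 probe sets. The clearest of these had 177 and 20.8 after hepatectomy, against 42.7 and 32.8 after sham operation. The probe set with the highest mean had 112 and 34.2, against 67.5 and 61.4 after sham operation.

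Over all 4 arrays none of the NR4A receptors passed. The log2 fold change by limma was 1.48 ± 0.73 for Nr4a1 (adjusted p = 0.362), 1.34 ± 0.81 for Nr4a3 (adjusted p = 0.47) and -0.02 ± 0.50 for Nr4a2 (adjusted p = 0.99). Without hepatectomy replicate 1, Nr4a1 had 0.16 (adjusted p = 0.917), Nr4a2 had -0.77 (adjusted p = 0.429) and Nr4a3 did not pass the filter on low values. Without hepatectomy replicate 2, Nr4a1 had 2.81 (adjusted p = 0.000617) and Nr4a3 had 2.79 (adjusted p = 0.00254), and both were called. The hepatectomy group is then the 1 array that stood apart, assumed to vary like the sham pair, and Nr4a3 passes the filter only through it, so these calls describe that array.

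The array with the high NR4A signals is the one with adrenal transcripts. The steroidogenic gene Hsd3b1 had 7227 and 24.4 on the hepatectomy arrays, against 9.16 and 3.5 on the sham arrays. The adrenal nuclear receptor gene Nr5a1 had 109 and 2.70 after hepatectomy, against 3.66 and 0.966 after sham operation. A second Nr5a1 probe set, the tested one, went the other way, with 18.2 and 20.6 after hepatectomy, against 36.8 and 31.7 after sham operation. Nr0b1, another receptor of that organ, had 24.9 and 1.70, against 4.36 and 2.85 after sham operation. The catecholamine genes Th and Dbh had 213 and 301 on hepatectomy replicate 1, and 2.06 and 1.46 on replicate 2. Of all 22 probe sets of the 13 adrenal markers, 19 were highest on hepatectomy replicate 1. The part of adrenal RNA in the NR4A signals was not tested. Nr2f1 was also highest on that array, with 109 and 39.4 after hepatectomy, against 55.4 and 40.4 after sham operation. Its log2 fold change was 0.43 ± 0.47 (limma adjusted p = 0.729), and -0.22 without that array.

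**Figure D4:**
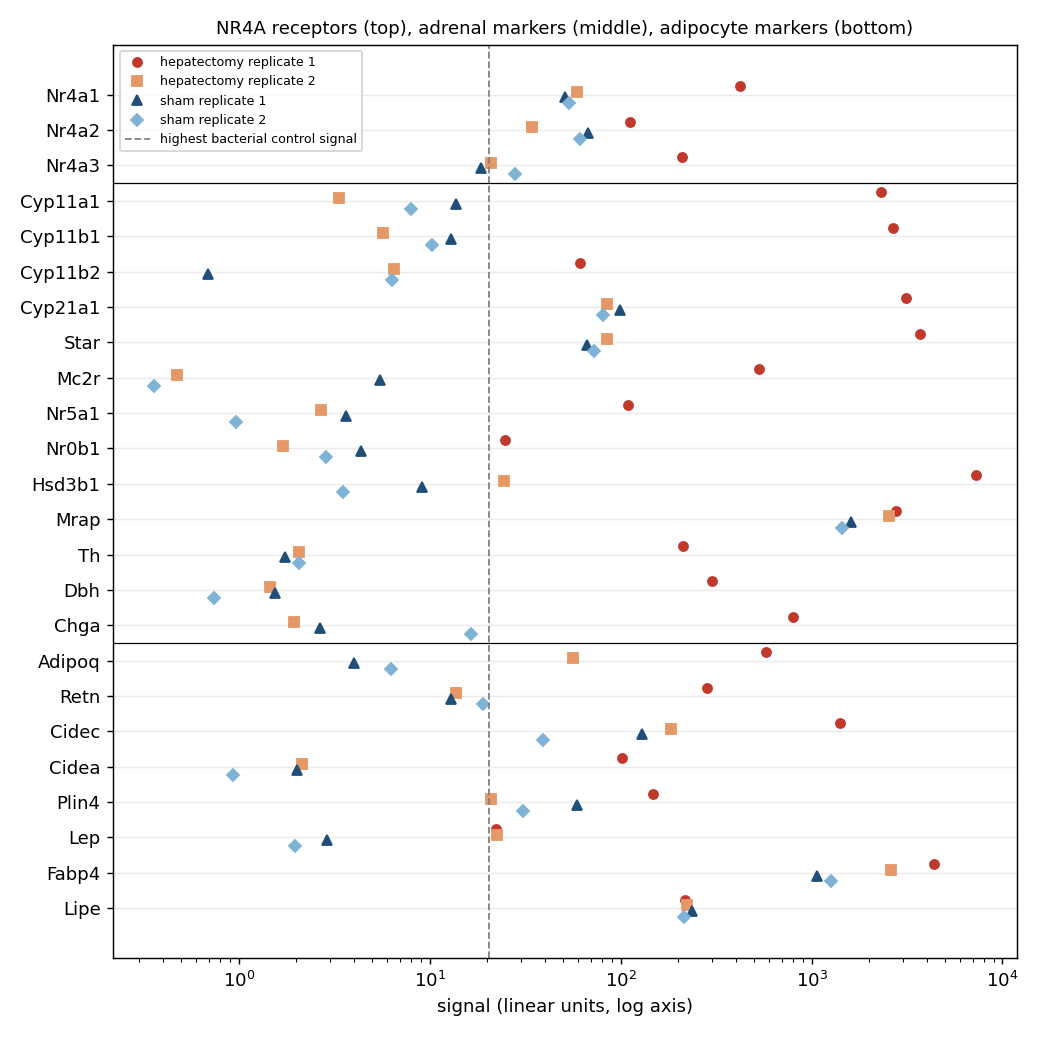
Signal (linear units on a log axis) of the 3 NR4A receptors (top), 13 adrenal markers (middle) and 8 adipocyte markers (bottom) on each array, with the bacterial control level of 20.4 as a dashed line. Circles and squares are hepatectomy replicates 1 and 2, triangles and diamonds sham replicates 1 and 2. Hepatectomy replicate 1 lies to the right of the other arrays for the NR4A receptors and all 13 adrenal markers.

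The promoters of the 3 NR4A genes are shown because these genes were high on the same array and are known to be induced through cyclic AMP. Each sequence is the 250 bases before the start, from RefSeq (GRCm38.p6), 5′ to 3′ on the strand of the gene. They lie at chr15:101266596-101266845 on the plus strand (Nr4a1), chr2:57124004-57124253 on the minus strand (Nr4a2) and chr4:48045055-48045304 on the plus strand (Nr4a3). Capitals mark TGACG, the core of the cyclic AMP response element, and its reverse complement CGTCA.
Nr4a1: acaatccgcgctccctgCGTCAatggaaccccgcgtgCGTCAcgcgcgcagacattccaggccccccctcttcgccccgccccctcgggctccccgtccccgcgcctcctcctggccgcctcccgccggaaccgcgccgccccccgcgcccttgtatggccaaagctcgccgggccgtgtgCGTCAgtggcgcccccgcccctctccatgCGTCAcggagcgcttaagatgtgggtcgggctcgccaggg
Nr4a2: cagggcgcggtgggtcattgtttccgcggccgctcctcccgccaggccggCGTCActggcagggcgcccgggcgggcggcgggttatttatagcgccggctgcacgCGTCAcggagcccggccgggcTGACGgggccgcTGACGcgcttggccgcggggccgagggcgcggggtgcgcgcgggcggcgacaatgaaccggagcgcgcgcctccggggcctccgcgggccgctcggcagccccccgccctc
Nr4a3: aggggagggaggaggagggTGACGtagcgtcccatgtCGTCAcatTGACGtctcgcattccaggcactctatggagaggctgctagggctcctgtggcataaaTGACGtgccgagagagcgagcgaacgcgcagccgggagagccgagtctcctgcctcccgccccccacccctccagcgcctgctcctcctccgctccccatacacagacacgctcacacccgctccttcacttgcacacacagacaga
The core occurred 4 times in each of the 3 sequences. Of 32851 promoter entries of the same length, 45 (0.137%) held 4 or more and 17.8% held at least 1. No matches overlapped each other in these 3 sequences. The 32851 entries were not matched to them for base composition. As for Nr0b2, a match describes the letters and is no measurement of binding.

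Among the other orphan receptors Nr6a1, the germ cell nuclear factor that represses pluripotency genes, had the most negative value. Its signals were 207 and 268 on the hepatectomy arrays, against 344 and 443 on the sham arrays, a log2 fold change of -0.71 ± 0.25 (95% interval -1.30 to -0.12; limma adjusted p = 0.21). Its second tested probe set had -0.53 ± 0.32. Both hepatectomy arrays lay below both sham arrays in each of these probe sets.

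Nr2c2, the testicular receptor TR4, had 1311 and 1102 on the hepatectomy arrays, against 1359 and 1526 on the sham arrays (log2 fold change -0.26 ± 0.18), and all 5 of its tested probe sets were negative. Its relative Nr2c1, the receptor TR2, had 410.0 and 519, against 549 and 453 after sham operation (-0.11 ± 0.23), with 2 of 4 tested probe sets negative. Esrra, the estrogen-related receptor of mitochondrial genes, had 162 and 196 after hepatectomy, against 218 and 245 after sham operation (-0.36 ± 0.26). These groups did not overlap for Nr2c2 and Esrra, and they overlapped for Nr2c1.

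Rora, a receptor of the circadian clock and of lipid metabolism, had 2693 and 2839 on the hepatectomy arrays, against 2703 and 2065 on the sham arrays (log2 fold change 0.23 ± 0.17). Of its 7 tested probe sets 5 were positive, from 0.01 to 0.36. Nr2f2, which encodes COUP-TFII, had 3359 and 2450.3 after hepatectomy, against 2565 and 3017 after sham operation, with overlapping groups (0.04 ± 0.18). Its relative Nr2f6 had a log2 fold change of -0.03 ± 0.11. Nr2f6 had the narrowest interval of the 29 receptors, from -0.28 to 0.21, with signals of 8404 and 8033 after hepatectomy and of 8401 and 8394 after sham operation. Hnf4g was dim, between 1.09 and 31.2 over its 3 probe sets.

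Of 14 receptors of the family outside the list, 11 had a probe set and 5 were tested. None was called by limma, with 1 at an unadjusted p under 0.05 (Nr1d2), against 19.9% of all genes. The log2 fold change was negative for 4 of the 5, against 5911 of all 12560 genes, with a median of -0.31. Nr1d1, the clock repressor REV-ERB alpha, had the most negative value (-0.81 ± 0.37, adjusted p = 0.327), with 330 and 456 on the hepatectomy arrays, against 454 and 1032 on the sham arrays. Hnf4a, which controls hepatocyte identity, had 11559 and 10740.4 on the hepatectomy arrays, against 12608 and 11720 on the sham arrays (log2 fold change -0.13 ± 0.10). Nr1d2, the clock repressor REV-ERB beta, had 4071 and 3965 after hepatectomy, against 4843 and 5147 after sham operation (-0.31 ± 0.12, limma adjusted p = 0.251). Nr1d1, Hnf4a and Nr1d2 were singled out after their values were seen.

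Coregulators, the proteins through which receptors switch transcription, were also not called in any of 23 tested genes by limma. An unadjusted p under 0.05 was found for 6, against 19.9% of all genes. Their median was -0.08, against 0.02 over all genes. The lowest adjusted p was that of Ppargc1b, a coactivator of mitochondrial and lipogenic genes. It had signals of 153 and 213 on the hepatectomy arrays, against 389 and 436 on the sham arrays, a log2 fold change of -1.15 ± 0.26 (adjusted p = 0.0551). Pprc1, of the same family, had 598 and 665 after hepatectomy, against 366 and 367 after sham operation (0.77 ± 0.20, adjusted p = 0.0946). Both were singled out after their values were seen.

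Enzymes and carriers of receptor ligands were the last list. Of 16 tested genes none was called by limma, and 6 had an unadjusted p under 0.05, against 19.9% of all genes. A negative log2 fold change was found for 13, against 5911 of all 12560 genes. The median was -0.34, against 0.02 over all genes. Dio1, the deiodinase that makes active thyroid hormone, had 879 and 4173 on the hepatectomy arrays, against 5627 and 5709.5 on the sham arrays (-1.56 ± 0.57, adjusted p = 0.22), and -0.44 without hepatectomy replicate 1. Hsd11b1, which makes active glucocorticoid in liver, had 9509 and 12566.5 after hepatectomy, against 15339 and 13988.5 after sham operation (-0.42 ± 0.14, adjusted p = 0.182), and -0.22 without that array. Without hepatectomy replicate 1 the median of this list was -0.15, and again no gene was called. Dio1 and Hsd11b1 were chosen after their values were seen.

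**Figure D5:**
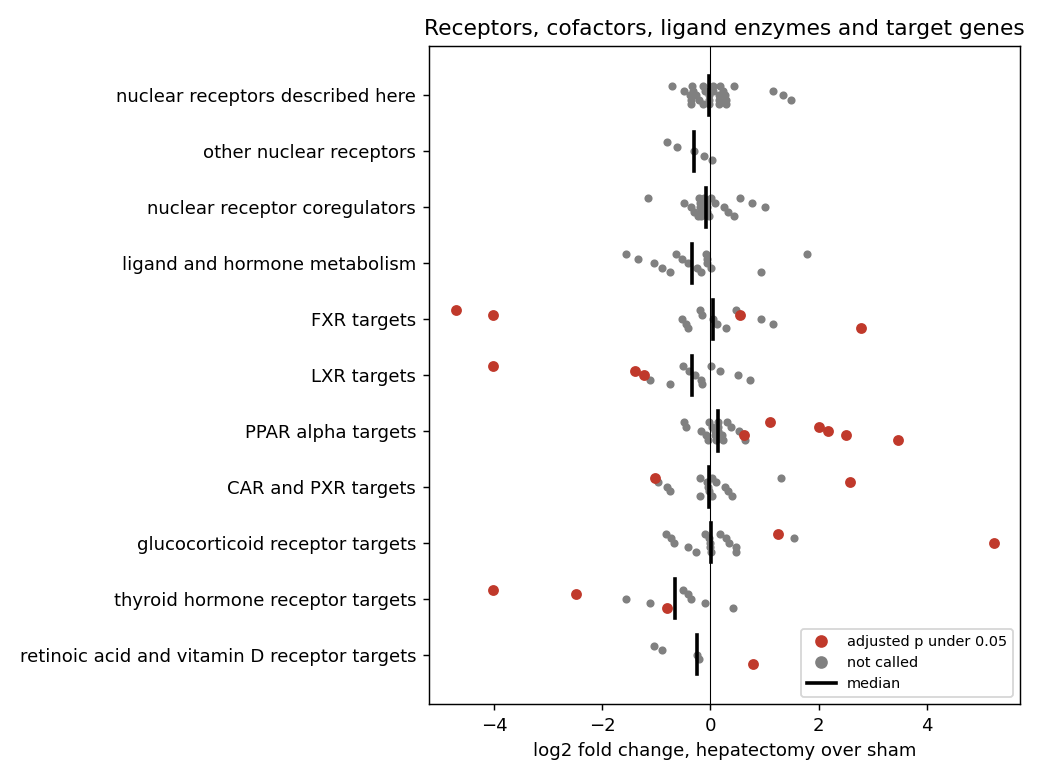
Log2 fold change (hepatectomy over sham) of every tested gene of the receptor list, of the other nuclear receptors, of the coregulators, of ligand and hormone metabolism, and of 7 target lists. Large red points passed an adjusted p of 0.05, grey points did not, and the black bar is the median. No point is red in the upper 4 rows, while 19 of the 98 distinct target genes are called (12 higher, 7 lower), against 4.67% of all genes. The lists were chosen with earlier results of these data known, so this share is no independent evidence. The 19 became 6 without the filter on low values and 5 without the mean-variance trend.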

How the data were processed

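The labels give total RNA of mouse liver, biotin-labelled and hybridised to expression arrays. The intensities were deposited by the authors as 1 linear signal per probe set and array, and the submitters' processing notes name GCOS 1.4. The sources used here give neither its settings nor any detection call or scan date, so no batch could be tested. Of 45101 probe sets 64 controls were left out, and 34945 of the other 45037 had 1 symbol in the platform annotation. Matching by Entrez identifier updated 0 symbols.

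Signals were turned to log2 after adding 8.57, the 20th percentile over all arrays, which understates the change of dim genes. Probe sets with a mean under the 40th percentile (5.09) were left out. The comparison used limma 3.58.1 (lmFit, eBayes) under R 4.3.3 (mean-variance trend, two-sided, 2 residual and 6.02 prior degrees of freedom), with Benjamini-Hochberg adjustment over the 27022 tested probe sets. A gene is represented by its tested probe set with the highest mean, and every probe set of a receptor was examined. Means and SDs are of signals, and the number of arrays limits their precision. Per-array values are given for receptors well above background (for others where the text names them), and at most 4 called genes of each other list are named, except where stated. Receptors, lists and tests were chosen with earlier results of these data known. The code was tested on simulated data. Promoters come from RefSeq, with an entry for 31 of the receptors.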

Additional observations from a re-analysis of the deposited data

How the results depend on the processing

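Under 14 alternative settings the receptors gave 0 calls in either direction, except that the fit with the replicate number as a block called 1 higher (Nr0b2, adjusted p = 0.00059), and leaving out 1 array at a time gave 0 to 2 higher and 0 to 1 lower. The 1 call without sham replicate 2 was Nr0b2, and the calls without hepatectomy replicate 2 were Nr4a1, Nr4a3 and Ppara. The numbers are not stated to pair the arrays, and the deviations of same-numbered arrays correlated at 0.102. In the block fit 1189 genes were called, against 586 without it. Other receptors outside the list gave 0 calls in every setting. Coregulators gave 1 call with median centring, quantile normalization, robust eBayes or averaged probe sets, 2 with the replicate block, and 0 to 4 with an array left out. Genes of ligand metabolism gave 5 with the replicate block and 0 to 7 with an array left out. The 19 called targets became 6 without the filter, 5 without the trend, 33 with the replicate block, and 11 to 33 with an array left out. Over all genes 218 were called without the filter, 173 without the trend, and 231, 321 and 1249 without sham replicate 1, sham replicate 2 and hepatectomy replicate 2. Median centring moved the median of all genes from 0.02 to -0.06. The cause of these shifts was not tested. Of 401 receptor values under the alternatives, 21 changed sign with no call on either side.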

Other observations

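Serpina6, the corticosteroid-binding globulin, had signals of 1360.2 and 6831 on the hepatectomy arrays, against 7848 and 7537 on the sham arrays. Without hepatectomy replicate 1 its log2 fold change was -0.17, against -1.33 over all arrays. Cyp26a1, which breaks down retinoic acid, had 342 and 1627 after hepatectomy, against 1095 and 1811 after sham operation. Without that array its log2 fold change was 0.21, against -0.90 over all arrays. Rbp4, a retinol carrier of the same list, was not lowest on that array, with 14228 and 13415 after hepatectomy, against 16223 and 12856 after sham operation. Neither Serpina6 nor Cyp26a1 was called by limma over the 4 arrays (adjusted p = 0.313 and 0.522). The 3 genes were chosen after their values were seen, and the part of the adrenal and adipocyte transcripts of that array in these values was not tested.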
